A study of Mus musculus with 10 samples.

Results

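The type I interferon response module is a list of 48 mouse genes that interferon signalling is known to induce. Its members were chosen by gene symbol, and each of the 48 symbols matched a row among the 31053 features of the RNA libraries. Their levels were measured in T cells that had entered colorectal carcinomas of mice, with droplet-based single-cell RNA sequencing from the 5' ends of transcripts, with T cell receptor sequencing of the same cells. There were 5 RNA libraries, each with a matched receptor library. In the untreated group (2 libraries) the tumour received no treatment named in the labels, the S. chamaejasme group (1 library) received Stellera chamaejasme, a plant used in Chinese herbal medicine, and the combination group (2 libraries) received S. chamaejasme together with anti-PD-1, an antibody therapy that blocks an inhibitory receptor of T cells. The comparisons ask how the module differs between these treatments and between T cell classes. The labels name no strain, age, dose or time, and no group had anti-PD-1 alone, so the antibody's share of a difference from the untreated group cannot be told apart from that of S. chamaejasme. Nothing states that the libraries came from separate animals, and p-values therefore measure the spread between these libraries, which may be technical. The sample titles of the untreated group follow another style than those of both treated groups, so a batch, if there was one, and the treatment cannot be told apart.

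Type I interferons (the interferon alphas and interferon beta) bind a receptor made of Ifnar1 and Ifnar2, whose kinases Jak1 and Tyk2 activate Stat2 and other transcription factors. Stat2 joins Irf9 in a complex that binds a short element in the promoters of interferon-stimulated genes, whose products block steps of virus replication. In T cells inside tumours such genes are known to mark cells that have sensed interferon, and several of them are also induced by interferon gamma.

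The 5 libraries held 22590 cell barcodes and 97967927 UMIs (unique molecular identifiers, each standing for 1 captured molecule), between 8763821 UMIs in untreated library 1 and 27759543 in combination library 1. After filters on genes, mitochondrial share and doublets, 20239 cells remained, 2244 to 5044 per library. Barcodes shared between any pair of libraries numbered 14 to 54, at most 0.976% of the smaller library. Clustering without the member genes gave 15 clusters, which were joined by markers into CD8 T-like cells (465 to 809 per library), CD4 conventional T-like cells (1495 to 3249) and regulatory T cell-like cells, here Treg-like (153 to 626). Levels below are on the counts-per-million scale (CPM). Those of single genes per class and library come from the summed UMIs, with library sizes scaled by the TMM method. Levels in clusters, in cells with or without an Ifit UMI, in clones and of summed lists are without this scaling. Summed markers of macrophages lay between 2.94 and 9.07 CPM in these classes. Of 6 markers of plasmacytoid dendritic cells, which are known for making interferon, Siglech and Klk1 were at 0 in the 3 classes, and the 6 summed to 7.18 to 78.1 CPM, with untreated library 1 the highest in each class. Their part in the results was not tested.

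Promoters of members are shown because the complex that holds Stat2 and Irf9 is known to bind an element of repeated GAAA letters there. RefSeq promoters (GRCm38.p6) matched 39 of the 48 members by symbol, and the letters GAAA, then any 2 bases, then GAAA again were searched on both strands. In the 250 bases before the start, 17 of 39 members (43.59%) held it, against 936 of 27025 genes (3.463%). With the 50 bases after the start added, these numbers were 21 of 39 (53.846%) and 1079 of 27025 (3.993%). A match describes these letters and does not show binding. In the sequences below, written 5' to 3' on the gene's strand and ending at the last base before the start, capitals mark each match on either strand, and overlapping matches run together.
Isg15: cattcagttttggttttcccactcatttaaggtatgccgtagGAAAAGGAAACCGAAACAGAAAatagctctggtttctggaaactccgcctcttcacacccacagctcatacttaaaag
Ifit1: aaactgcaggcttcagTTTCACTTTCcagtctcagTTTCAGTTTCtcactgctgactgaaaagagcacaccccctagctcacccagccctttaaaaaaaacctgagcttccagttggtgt
Ifit3: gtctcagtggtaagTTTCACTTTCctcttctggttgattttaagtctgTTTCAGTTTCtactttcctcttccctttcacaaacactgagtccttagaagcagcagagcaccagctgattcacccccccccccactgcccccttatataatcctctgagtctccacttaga
Ifit3b: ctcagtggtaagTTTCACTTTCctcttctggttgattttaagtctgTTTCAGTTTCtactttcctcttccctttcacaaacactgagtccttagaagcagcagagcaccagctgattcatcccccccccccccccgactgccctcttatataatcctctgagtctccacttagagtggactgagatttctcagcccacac
Oas3: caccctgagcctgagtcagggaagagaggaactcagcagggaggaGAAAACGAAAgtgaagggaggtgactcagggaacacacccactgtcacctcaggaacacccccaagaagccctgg
Bst2: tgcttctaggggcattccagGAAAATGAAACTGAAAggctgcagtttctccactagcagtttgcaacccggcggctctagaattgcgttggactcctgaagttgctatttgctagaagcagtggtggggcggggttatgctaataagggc
Epsti1: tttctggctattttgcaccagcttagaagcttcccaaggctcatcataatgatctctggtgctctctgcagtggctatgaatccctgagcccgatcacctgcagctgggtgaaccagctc
Slfn1: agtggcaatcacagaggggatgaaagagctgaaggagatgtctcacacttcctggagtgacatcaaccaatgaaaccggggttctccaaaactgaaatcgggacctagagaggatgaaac

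The Isg15 sequence (chr4:156200819-156200938, minus strand) holds 3 overlapping matches, beginning 78, 72 and 66 bases before the start. Bst2 (chr8:71537473-71537622, minus strand) has 2 that overlap, and Oas3 (chr5:120777660-120777779, minus strand) has 1. The 2 matches of Ifit1 lie at chr19:34640769-34640888 on the plus strand, where the motif reads as TTTC repeats. Ifit3 (chr19:34583359-34583528) and Ifit3b (chr19:34607757-34607956), both on the plus strand, carry a pair with the same spacing, and their promoters were identical at 188 of 218 aligned bases (86.2%). Epsti1 (chr14:77904119-77904238) and Slfn1 (chr11:83116700-83116819), both on the plus strand, are shown as members without a match in this window whose levels differ most between the T cell classes described below.

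Several members lie side by side in the genome (GRCm38). The 5 Ifit members span 99 kb of chromosome 19 (34550694 to 34650009), and Oas1a, Oas1g, Oas2 and Oas3 span 177 kb of chromosome 5 (120730333 to 120907521). Parp9, Parp14 and Dtx3l lie within 140 kb of chromosome 16, and Slfn1, Slfn5 and Slfn8 within 171 kb of chromosome 11. Some copies are close enough that the counting could split their reads. Of the 50-base stretches in Ifit3 transcripts, 51.2% also occur in Ifit3b, and 57.6% of those in Oas1a occur in Oas1g, so the levels of these pairs and of Phf11b (47.0% shared with any other gene) are uncertain.

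Most of the module's RNA came from few members. Among CD8 T-like cells 26 of 48 members had a mean above 10 CPM and 10 were above 50 CPM. The corresponding numbers were 27 and 8 in both CD4 conventional T-like and Treg-like cells. The kit counts 1 UMI per molecule from its 5' end, so the values are not divided by gene length. Ifi27l2a, a small membrane protein of unsettled function, made up 18.2% of the module's UMIs in CD8 T-like, 33.7% in CD4 conventional T-like and 52.7% in Treg-like cells. At the other end, Oas1g had no UMI in the 3 classes and Oas1a had 1, while Oasl2 had 3, 10 and 3 UMIs in CD8 T-like, CD4 conventional T-like and Treg-like cells. The OAS family makes a messenger that activates RNA decay, and Oas3 was its best-detected member in CD8 T-like cells, at 5.66 to 11.6 CPM.

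**Figure D1:**
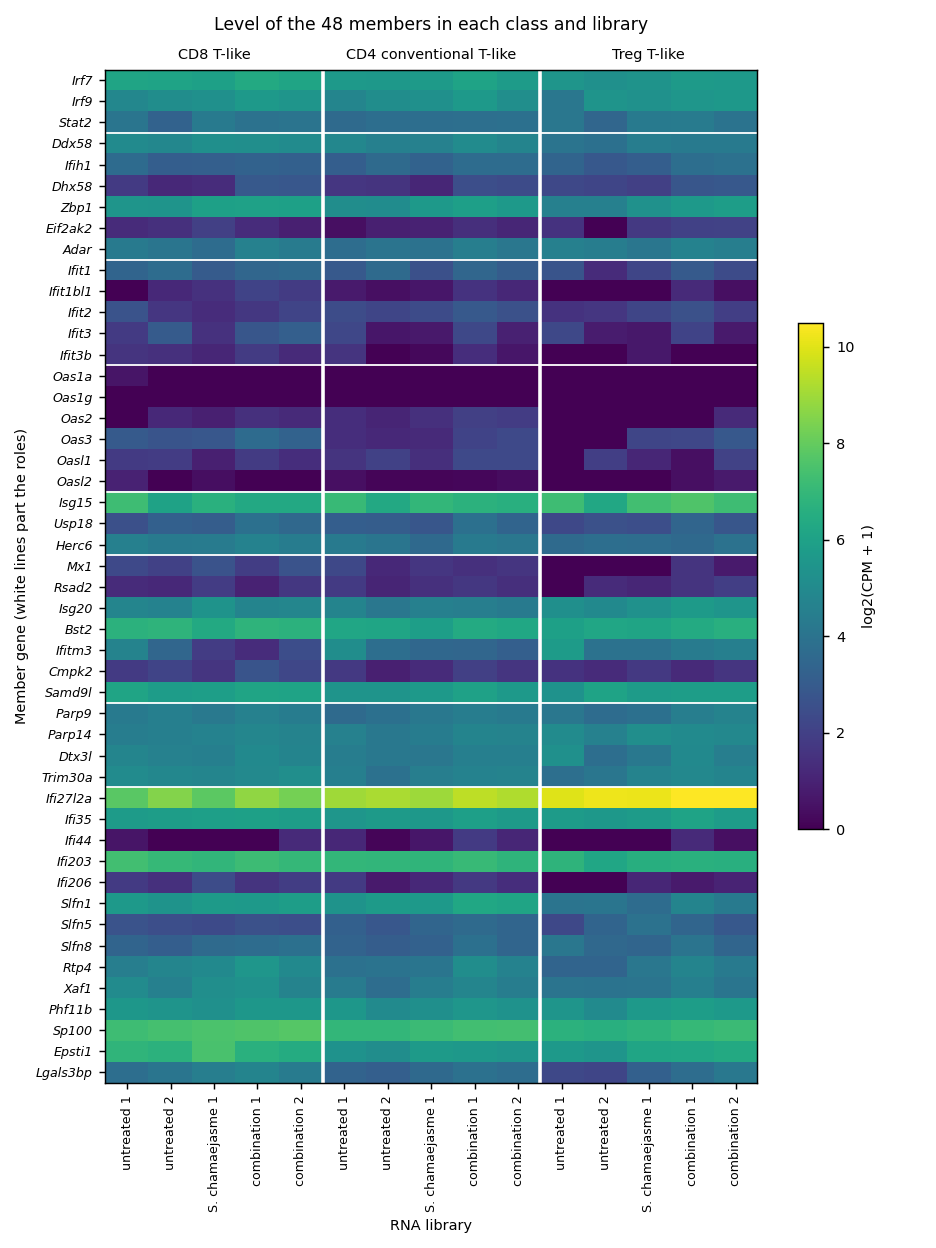
Level of each of the 48 members, as log2(CPM + 1), for each T cell class (columns in 3 blocks) and RNA library, with members grouped by role between white lines. Ifi27l2a is the brightest row in every block and brightest in Treg-like cells, while Oas1a and Oas1g are dark throughout.

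Classes differed in which members they carried. Compared with CD4 conventional T-like cells, members leaned higher in CD8 T-like cells and went both ways in Treg-like cells. These differences were tested within libraries, with the library as a block, in edgeR's quasi-likelihood test with Benjamini-Hochberg adjustment over 9448 genes, and a call is an adjusted p under 0.05. All adjusted p-values below come from this kind of test. Of 35 members that passed the filter on low counts, 17 were higher in CD8 T-like cells, against 13.8% of all genes, and 4 were lower, against 14.9%. Their median log2 difference was 0.30.

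Epsti1, an interferon-induced gene first described in epithelial and stromal cells, held 107 to 116 CPM in untreated, 177 CPM in S. chamaejasme and 85.6 to 101 CPM in combination CD8 T-like cells. In CD4 conventional T-like cells its range over the 5 libraries was 34.3 to 50.9 CPM, so the class sums did not overlap, and the log2 difference was 1.43 ± 0.12 (SE, adjusted p = 4.58e-08). The CD8 T-like class joins clusters 5 (1718 cells) and 7 (1473 cells). Without TMM scaling, Epsti1 held 180.0 to 262 CPM in cluster 7. Cluster 5 held 29.2 to 50.4 CPM, near the CD4 conventional T-like values, so the class difference was not seen in that cluster. Oas3 was higher in CD8 T-like cells by 1.73 ± 0.25 and Lgals3bp, a secreted glycoprotein that binds galectins, by 0.81 ± 0.14. Bst2, a tether that holds budding virus at the cell surface, ranged from 81.0 to 113 CPM in CD8 T-like and from 58.6 to 83.9 CPM in CD4 conventional T-like cells, a log2 difference of 0.52 ± 0.08 (adjusted p = 2.67e-05). Within each of the 5 libraries the CD8 T-like value was the higher of the pair for these 4 genes, although the Bst2 ranges overlap between libraries. Irf7, a transcription factor that amplifies interferon production, was higher by 0.38 ± 0.06 (adjusted p = 0.000179), and the RNA sensor Ddx58 by 0.33 ± 0.09 (adjusted p = 0.00879). Zbp1, a sensor of Z-form nucleic acids that can start cell death, was higher by 0.28 ± 0.09 (adjusted p = 0.0182).

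Also higher in CD8 T-like cells were Ifit3, Xaf1, Rtp4, Trim30a, Isg20, Herc6, Samd9l, Dtx3l, Sp100 and Ifi35. Ifit3 was higher in 4 of 5 libraries and shares sequence with Ifit3b. Lower in CD8 T-like cells were Ifitm3, a membrane protein that blocks virus entry (-0.97 ± 0.25), Slfn5 (-0.93 ± 0.19), Ifi27l2a (-0.89 ± 0.09) and Ifit2 (-0.80 ± 0.25). Irf9, Stat2, Ifit1, Isg15 and Usp18 were not called between these classes, with log2 differences from -0.22 for Isg15 to 0.33 for Ifit1, and Mx1 and Rsad2 were below the filter. Single libraries carried some of these calls: Zbp1 (adjusted p = 0.0555), Ddx58 (0.0536) and Herc6 (0.0508) were not called without the S. chamaejasme library, Ifit3 (0.0778) without combination library 2, Dtx3l (0.0759) without combination library 1, Ifit2 (0.0718 and 0.181) without the S. chamaejasme library or combination library 1, and Ifi35 (0.0545 to 0.171) without any single library. Without the library block, 9 members were called rather than 21.

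Treg-like cells carried the highest Ifi27l2a level. It measured 1020.1 and 1209 CPM in the untreated, 1159.9 CPM in the S. chamaejasme and 1419 and 1438 CPM in the combination libraries, against 493 to 703 CPM in CD4 conventional T-like cells. The ranges did not overlap, and the log2 difference was 0.96 ± 0.08 (adjusted p = 2.33e-08). Slfn1, a Schlafen gene linked to growth arrest and quiescence of T cells, showed the reverse. It held 12 to 26.0 CPM in Treg-like and 41.3 to 74.4 CPM in CD4 conventional T-like cells, again without overlap, a log2 difference of -1.83 ± 0.13 (adjusted p = 2.03e-09).

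In total 5 of 35 members were higher in Treg-like than in CD4 conventional T-like cells, against 23.8% of all genes, and 11 were lower, against 21.9%, with a median of -0.04. Beside Ifi27l2a, the higher ones were Isg20, an RNA exonuclease (0.84 ± 0.13), Ifitm3 (0.68 ± 0.22), Epsti1 (0.48 ± 0.14) and Isg15, a ubiquitin-like modifier (0.31 ± 0.12, adjusted p = 0.0401, higher in 4 of 5 libraries). Beside Slfn1, the lower ones were Ifit1, which binds foreign capped RNA (-1.02 ± 0.24), Ddx58 (-0.74 ± 0.12), Usp18, which removes Isg15 and dampens the receptor (-0.72 ± 0.17), Ifi203, Herc6, Rtp4, Sp100, Irf7 (-0.42 ± 0.08), Xaf1 and Zbp1 (-0.34 ± 0.10). Irf9, Stat2, Ifit3 and Bst2 were not called, at -0.05, 0.17, -0.34 and -0.02. Calls were lost without combination library 1 for Zbp1, Herc6, Xaf1 and Isg15 (adjusted p from 0.0584 for Xaf1 to 0.270 for Isg15), without combination library 2 for Epsti1, Ifitm3, Xaf1 and Isg15 (0.0525 for Xaf1 to 0.175 for Isg15) and without the S. chamaejasme library for Isg15 (0.0528). With classes gated on single cells instead of clusters, 8 members were called rather than 16, and without the library block 9.

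**Figure D2:**
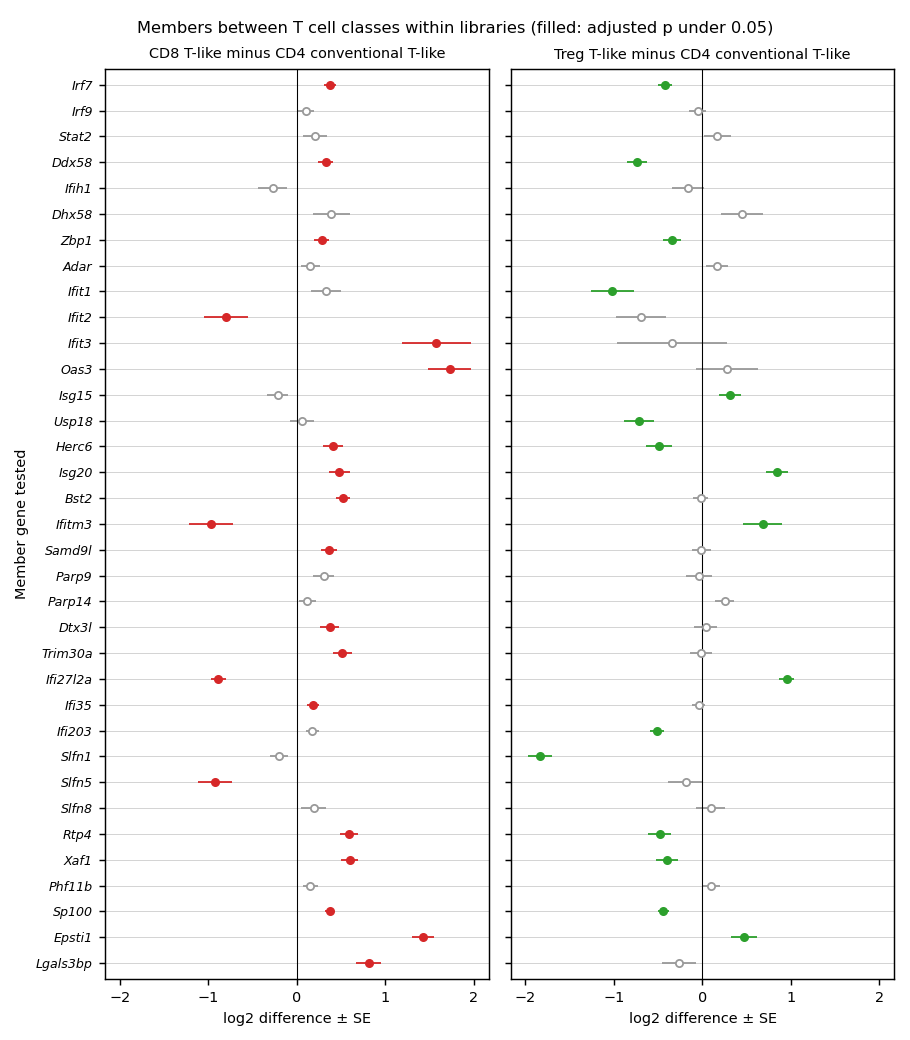
Log2 difference (± SE) of each of the 35 members tested between CD8 T-like and CD4 conventional T-like cells (left) and between Treg-like and CD4 conventional T-like cells (right), within libraries. Filled points passed adjusted p under 0.05, and Epsti1 (1.43) and Ifi27l2a (-0.89 and 0.96) stand apart.

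Within the classes, the levels of some members differed between clusters. Among CD4 conventional T-like cells, Isg15 averaged 224 ± 74 CPM (SD, n = 5 libraries) in cluster 1, led by the helper cell genes Tox2, Tnfsf8 and Il21, and 46.3 ± 20 CPM in cluster 0, led by Ifngr2 and Igfbp4. Ifitm3 averaged 73.0 ± 21 CPM in cluster 4, whose leading genes include the cytokine Il17a, and between 2.88 and 7.85 CPM in clusters 0, 1, 2, 3 and 8. Slfn1 was highest in cluster 2, which expressed the naive cell gene Il6ra, at 96.9 ± 21 CPM. Among CD8 T-like cells, Epsti1 averaged 216 ± 40 CPM in cluster 7, led by the effector genes Ccl5, Gzma and Gzmk, and 44.1 ± 8.8 CPM in cluster 5, led by Cd8b1, Ly6c2 and Plac8. Because the clusters were made from these cells, these values are descriptions. The clusters' shares of a class differed between groups. Cluster 8 made up 23.9% and 40.5% of untreated CD4 conventional T-like cells and 0.348 to 1.11% elsewhere. Its leading genes include AY036118, Lars2 and Gm42418, transcripts linked to RNA quality and nuclear RNA. Cluster 0 made up 3.70 to 5.42% in untreated and 34.0 to 35.2% in combination libraries. Cluster 7 made up 38.7 to 59.8% of untreated, 72.8% of S. chamaejasme and 26.6 to 31.1% of combination CD8 T-like cells. For the combination, fits in single clusters and without clusters 0 and 8 are given below.

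With the combination, few members were called, and most of those called were higher. Zbp1 was higher in the 3 classes, Rtp4, Slfn1, Sp100 and Parp9 were higher in CD4 conventional T-like cells, Epsti1 and Lgals3bp were higher in Treg-like cells, and Ifitm3 was lower in CD8 T-like cells. In CD8 T-like cells 1 of 40 tested members was called higher, against 1.74% of all genes, and 1 lower, against 3.74%. Of 45 in CD4 conventional T-like cells 5 were called higher, against 2.25%, and 0 lower, against 4.01%. In Treg-like cells 3 of 33 were called higher, against 0.973%, and 0 lower, against 1.36%. At unadjusted p under 0.05 in the same edgeR test were 9, 21 and 14 members, and the share of all genes at that level was not counted. The median log2 change of the tested members was 0.19, 0.44 and 0.43 in these classes, beside 0.01, -0.00 and -0.00 over all genes tested, and 30 of 40, 40 of 45 and 31 of 33 were above 0.

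Among the nucleic acid sensors, Zbp1 measured 42.9 and 41.8 CPM in untreated, 60.6 CPM in S. chamaejasme and 63.8 and 62.2 CPM in combination CD8 T-like cells. In CD4 conventional T-like cells it measured 34.1 and 33.3, then 48.8, then 60.4 and 48.6 CPM, and in Treg-like cells 22.8 and 23.0, then 38.3, then 48.9 and 56.4 CPM. Both combination libraries lay above both untreated libraries in each class, and the S. chamaejasme library was at or near the combination values in CD8 T-like and CD4 conventional T-like cells and between the groups in Treg-like cells. The log2 changes were 0.57 ± 0.14 (SE, adjusted p = 0.0356), 0.70 ± 0.13 (adjusted p = 0.027) and 1.20 ± 0.23 (adjusted p = 0.0152). Dhx58, a regulator of the RNA sensors, was not called, at 1.76 ± 0.52 in CD8 T-like (adjusted p = 0.0678) and 1.11 ± 0.27 in CD4 conventional T-like cells (adjusted p = 0.0532). Ddx58 had log2 changes of 0.18, 0.21 and 0.37, none called.

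The transcription factors of the module were not called in any class. Irf9 measured 27.6 and 34.4 CPM in untreated, 37.1 CPM in S. chamaejasme and 50.1 and 43.4 CPM in combination CD8 T-like cells, without overlap of the outer groups (0.58 ± 0.17, adjusted p = 0.0657). Irf7 had changes of 0.14, 0.34 and 0.37 and Stat2 of 0.33, 0.16 and 0.52 in CD8 T-like, CD4 conventional T-like and Treg-like cells, with adjusted p of at least 0.14.

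Isg15 and the antiviral effectors did not move in one direction. Isg15 measured 149 and 64.5 CPM in untreated, 99.4 CPM in S. chamaejasme and 78.5 and 80.3 CPM in combination CD8 T-like cells. The untreated libraries lay on both sides of the others, as they did in CD4 conventional T-like cells (133 and 79.4 CPM, against 107 and 97.7 CPM with the combination), and the changes were -0.42 ± 0.26 and -0.04 ± 0.21, not called. The change of Isg15 in CD4 conventional T-like cells was 0.37 without untreated library 1 and -0.37 without untreated library 2, and each of these passed the threshold. In Treg-like cells it was 0.69 ± 0.23 (adjusted p = 0.119), and 1.12, past the threshold, without untreated library 1. Ifitm3 fell in CD8 T-like cells, from 24.7 and 10.0 CPM in untreated libraries to 1.52 and 4.59 CPM with the combination, with 2.67 CPM in the S. chamaejasme library. Untreated library 1 was the highest, the groups did not overlap, and the log2 change was -2.44 ± 0.49 (adjusted p = 0.0131). Ifitm3 is also known as abundant in myeloid and stromal cells, and it averaged 1656 ± 1630.4 CPM in cluster 14, led by Jchain, Cd74, Lyz2 and Apoe. In CD8 T-like cells, 4 of 10 macrophage markers (Adgre1, C1qc, Ms4a7 and Fcgr1) were at 0, and the 10 summed to 5.10 and 7.30 CPM in untreated and 6.66 and 2.94 CPM in combination libraries, so their ranges overlapped. The change of Ifitm3 was -1.32 ± 0.39 in CD4 conventional T-like (adjusted p = 0.0826) and -0.32 ± 0.38 in Treg-like cells (adjusted p = 0.7).

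Other members of the panel were not called in the classes where they were tested. Ifit1 had log2 changes of -0.04, -0.09 and 1.03 in the order above, Usp18 of 0.85, 0.61 and 0.75, Bst2 of -0.00, 0.13 and 0.41, and Ifi27l2a of 0.32, 0.26 and 0.35. Ifit3 (0.55 and 0.38) and Mx1, a GTPase that traps virus particles (0.27 and -0.36), were tested in CD8 T-like and CD4 conventional T-like cells, and Rsad2, which makes a chain-terminating nucleotide, in CD4 conventional T-like cells alone (0.20). The OAS family reached the filter with 1, 3 and 1 members. Oas3 had no UMI in untreated Treg-like cells and 29 with the combination, which makes it at least 3.4-fold higher when the untreated group is set to 3 counts over the group (adjusted p = 0.0997, not called). Below the filter were 8 members in CD8 T-like cells (Ifit3b, Oas1a, Oas1g, Oas2, Oasl1, Oasl2, Rsad2 and Ifi44), 3 in CD4 conventional T-like cells (Oas1a, Oas1g and Oasl2) and 15 in Treg-like cells (Eif2ak2, Ifit1bl1, Ifit2, Ifit3, Ifit3b, Oas1a, Oas1g, Oas2, Oasl1, Oasl2, Mx1, Rsad2, Cmpk2, Ifi44 and Ifi206).

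Among the remaining induced genes, Rtp4, a chaperone of membrane receptors, measured 14.2 and 14.8 CPM in untreated, 15.8 CPM in S. chamaejasme and 33.9 and 24.1 CPM in combination CD4 conventional T-like cells. The S. chamaejasme library sat with the untreated ones and the combination libraries lay above them, a log2 change of 1.0 ± 0.19 (adjusted p = 0.0272). Slfn1 measured 41.3 and 50.9 CPM in untreated, 49.9 CPM in S. chamaejasme and 74.4 and 67.9 CPM in combination libraries of that class (0.62 ± 0.12, adjusted p = 0.0327). Again the S. chamaejasme value fell within the untreated range. Sp100, a nuclear body protein, measured 123 and 121, then 141, then 160 and 165 CPM (0.41 ± 0.09, adjusted p = 0.0414), and Parp9, which with Dtx3l modifies histones, 11.4 and 13.5, then 17.6, then 20.7 and 19.0 CPM (0.66 ± 0.15, adjusted p = 0.0431). For both, the S. chamaejasme library lay between the other groups.

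In Treg-like cells Lgals3bp rose from 3.80 and 3.59 CPM in untreated over 8.37 CPM in S. chamaejasme to 12.5 and 17.2 CPM in combination libraries (2.0 ± 0.49, adjusted p = 0.0444), where the untreated values rest on 2 and 5 UMIs. Epsti1 there measured 49.4 and 43.1 CPM in untreated, 70.6 CPM in S. chamaejasme and 72.1 and 82.0 CPM in combination libraries (0.77 ± 0.19, adjusted p = 0.0464). For both genes the untreated libraries were the lowest and did not overlap the others.

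By role, the tested members not named above were without a call. In CD4 conventional T-like cells the 6 nucleic acid sensors (Ddx58, Ifih1, Dhx58, Zbp1, Eif2ak2 and Adar) had log2 changes from 0.21 to 1.11, and the 4 members of the PARP and ubiquitin ligase group (Parp9, Parp14, Dtx3l and Trim30a) from 0.22 to 0.66. The 14 IFI, Schlafen and other induced genes ranged from 0.04 to 1.67, among them Ifi35, Ifi44, Ifi206, Slfn5, Slfn8, Xaf1 and Phf11b. Among CD8 T-like cells 4 of 6 sensors, 4 of 4 of the PARP and ubiquitin ligase group and 10 of 13 of the IFI, Schlafen and other group were above 0, with medians of 0.24, 0.14 and 0.21. In Treg-like cells these counts were 5 of 5, 4 of 4 and 12 of 12. The IFIT family split in CD8 T-like cells, with 2 of 4 tested above 0 and values from -0.36 to 2.0.

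Both combination libraries were higher than both untreated libraries for 18 of 40 tested members in CD8 T-like cells, where 26.9% of all genes tested were, for 30 of 45 in CD4 conventional T-like cells (29.9%) and for 21 of 33 in Treg-like cells (25.5%). Both were lower for 2 (26.1%), 1 (29.3%) and 0 (23.8%) members. Summed over the 48 members, the module measured 1700 and 1519 CPM of raw UMIs in untreated, 1758 CPM in S. chamaejasme and 1879 and 1697 CPM in combination CD8 T-like cells. The sums were 1654 and 1455, then 1627, then 2022 and 1787 CPM in CD4 conventional T-like cells and in Treg-like cells 2119 and 1953, then 2234, then 2797 and 2789 CPM. The combination values lay above the untreated ones in CD4 conventional T-like and Treg-like cells and overlapped them in CD8 T-like cells, with log2 ratios of the means of 0.29, 0.46 and 0.15. In bulk sums such as these, more cells expressing a gene and more RNA per cell cannot be told apart.

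**Figure D3:**
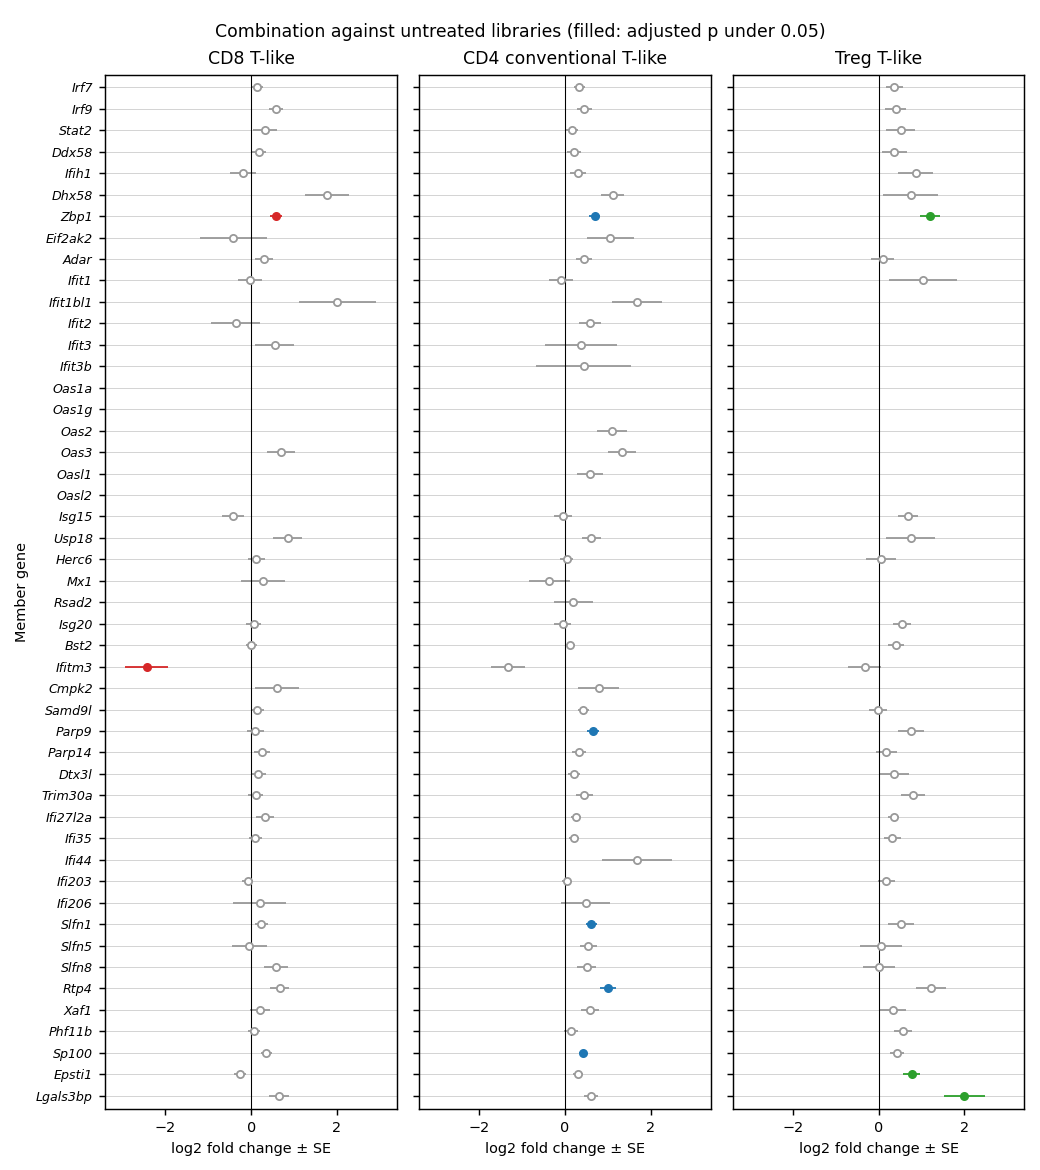
Log2 change (± SE) of the tested members between combination and untreated libraries in CD8 T-like (left), CD4 conventional T-like (middle) and Treg-like cells (right). Filled points passed adjusted p under 0.05, most open points lie to the right of 0, and Oas3 in Treg-like cells is not drawn because its untreated libraries held no UMI.

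The calls depended on single libraries. Without combination library 1, none of the 5 calls in CD4 conventional T-like cells remained (adjusted p from 0.0748 for Rtp4 to 0.269 for Sp100) and Ifitm3 (lower) was the 1 member called, whereas 18 were called without untreated library 1 and 14 without untreated library 2. For CD8 T-like cells, 10 members were called without untreated library 2 and 1 without combination library 1, and Zbp1 was not called without combination library 1 (adjusted p = 0.249) or 2 (0.183). In Treg-like cells, 10 members were called without untreated library 1, 1 without the S. chamaejasme library, 1 without combination library 1 and 0 without combination library 2. Such fits leave 1 library in a group, which is assumed to vary like the others. Over the alternatives run, the adjusted p of Zbp1 ranged from 0.0102 to 0.391 in CD8 T-like, from 6.15e-07 to 0.367 in CD4 conventional T-like and from 0.000237 to 0.181 in Treg-like cells, and that of Rtp4 in CD4 conventional T-like cells from 4.00e-09 to 0.950. Fitted in clusters 1, 2, 4, 5 and 6 alone, no member was called, while the median log2 change of the members was 0.41, 0.25, 0.12, 0.33 and 0.46. In cluster 7 alone 2 members were called, Sp100 higher and Ifitm3 lower. Without clusters 0 and 8, 6 members were called in CD4 conventional T-like cells. Oas2 (2.06) and Ifitm3 (-1.31) then passed the threshold and Rtp4 did not (adjusted p = 0.0529). With no filter on low counts 5, 21 and 6 members were called in CD8 T-like, CD4 conventional T-like and Treg-like cells, and DESeq2 called 0, 4 and 0. The summed level of 4 transcripts linked to RNA quality and nuclear RNA (AY036118, Lars2, Gm42418 and Malat1) also moved with the groups, at 21288 to 33295 CPM in untreated and 11674 to 15203 CPM in the treated libraries over the 3 classes, and its part was not tested.

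Summed marker lists of other cell types moved as well. The 8 dendritic cell markers summed to 425 and 777 CPM in untreated and 942 and 1055 CPM in combination CD8 T-like cells, where Flt3, Xcr1, Clec9a and Cd209a were at 0. In that class the sum came from H2-Ab1, H2-Aa, Ccr7 and Fscn1 alone, and it does not show that dendritic cells were present. The sums were 652 and 833, then 963 and 1106 CPM in CD4 conventional T-like cells, with Clec9a and Cd209a at 0, and in Treg-like cells 998 and 1330.0, then 1276 and 1596 CPM, which overlap. The 7 B cell markers were also higher with the combination and did not overlap, at 34.2 and 62.5, then 63.9 and 69.3 CPM in CD8 T-like cells (Ms4a1 and Pax5 at 0), 28.1 and 52.1, then 52.7 and 63.5 CPM in CD4 conventional T-like cells and 103 and 101, then 127 and 157 CPM in Treg-like cells (Ms4a1 and Pax5 at 0). The 6 plasma cell markers were lower in CD8 T-like cells (60.7 and 58.4, then 44.6 and 49.1 CPM, with Mzb1 and Ighg1 at 0) and overlapped in the other classes. The part of these genes in the members' changes was not tested.

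S. chamaejasme alone, compared with the same untreated libraries, gave 1 call. Epsti1 in CD8 T-like cells, at the values given above, rose by 0.66 ± 0.16 (adjusted p = 0.0454), where 1.2% of all genes were called higher and 1.36% lower. Cluster 7, where Epsti1 is highest, made up 72.8% of CD8 T-like cells with S. chamaejasme and 38.7 to 59.8% in untreated libraries. Inside cluster 7 Epsti1 measured 262 CPM, against 182 and 201 CPM in untreated libraries. Inside cluster 5 it measured 47.1 CPM, against 29.2 and 43.5 CPM. The call was not refitted within clusters. No member was called in CD4 conventional T-like cells (0 of 45, against 1.62% of all genes in either direction, with 6 at unadjusted p under 0.05) or in Treg-like cells (0 of 33, against 1.43%, with 3 at unadjusted p under 0.05), and DESeq2 called 0 in each class. Members above 0 numbered 19 of 40, 24 of 45 and 26 of 33, with medians of -0.03, 0.03 and 0.12. Zbp1 changed by 0.52 ± 0.17 (adjusted p = 0.13), 0.54 ± 0.16 (0.1) and 0.74 ± 0.29 (0.2) in CD8 T-like, CD4 conventional T-like and Treg-like cells. Ifitm3 in CD8 T-like cells had a change of -2.66 ± 0.67 (adjusted p = 0.054), and Isg15 there of -0.09 ± 0.31, which became 0.62 without untreated library 1 and -0.59 without untreated library 2. Leaving out untreated library 1 gave 8 calls in CD8 T-like, 6 in CD4 conventional T-like and 2 in Treg-like cells, and leaving out untreated library 2 gave 4, 4 and 1. The call of Epsti1 was lost without combination library 1 (adjusted p = 0.0756) or 2 (0.0803), and DESeq2 did not make it.

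The combination against S. chamaejasme alone, which shares libraries with both comparisons above, again gave a call for Epsti1 only among the members, lower in CD8 T-like cells by -0.92 ± 0.15 (adjusted p = 0.00609, 1.56% of genes called lower and 0.983% higher). Among CD4 conventional T-like cells 0 of 45 were called (0.203% of genes in either direction), with 11 at unadjusted p under 0.05, and 40 were above 0. In Treg-like cells 0 of 33 were called (0.526%), with 2 at unadjusted p under 0.05, and 29 were above 0. DESeq2 called 0 in both. Rtp4 in CD4 conventional T-like cells, at 15.8 CPM against 33.9 and 24.1 CPM, was among those not called. The call of Epsti1 was lost without combination library 2 (-0.80, adjusted p = 0.0800). Among CD4 conventional T-like cells, 9 members were called without untreated library 1, 11 without untreated library 2 and 3 without combination library 2, and in CD8 T-like cells 7 without either untreated library. The group of S. chamaejasme alone has 1 library, whose spread is taken from the other groups. Cluster 7 made up 72.8% of its CD8 T-like cells and 26.6 to 31.1% in combination libraries, and the call of Epsti1 was not refitted within clusters. Inside cluster 7 Epsti1 measured 262 CPM with S. chamaejasme and 254 and 180.0 CPM with the combination. Inside cluster 5 it measured 47.1 CPM, and 50.1 and 50.4 CPM with the combination, the opposite order to the call.

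Epsti1 was also the member whose response to the combination differed between classes. The change in CD8 T-like cells minus that in CD4 conventional T-like cells was -0.55 ± 0.12 (adjusted p = 0.0191), the 1 call among 45 members (0.307% of genes called lower and 0.372% higher). It stood at 107 to 116 CPM in untreated and 85.6 to 101 CPM in combination CD8 T-like cells, and at 34.3 to 39.4 and 42.8 to 47.5 CPM in CD4 conventional T-like cells, so the groups were apart in both classes and in opposite order. Within each class alone the change was not called (-0.26 ± 0.14 and 0.30 ± 0.11). Its adjusted p was 0.0755, 0.112, 0.184 and 0.346 without untreated library 1, untreated library 2, combination library 1 and combination library 2, and over the alternatives it ranged from 0.00523 to 1.0. DESeq2 and the gated classes made no call. The share of cluster 7, where Epsti1 is highest, moves with these values (38.7 to 59.8% of untreated and 26.6 to 31.1% of combination CD8 T-like cells), and the difference was not refitted within clusters. Inside cluster 7 Epsti1 measured 182 and 201 CPM in untreated and 254 and 180.0 CPM in combination libraries, with overlap. Inside cluster 5, the other cluster of the class, it measured 29.2 and 43.5 CPM in untreated and 50.1 and 50.4 CPM in combination libraries, so the combination values were the higher ones.

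Cells with a UMI of Ifit1, Ifit1bl1, Ifit2, Ifit3 or Ifit3b were counted after each cell was thinned to 2000 UMIs, with shallower cells left out (6 to 254 per class and library). In CD8 T-like cells their share was 2.50% and 2.78% in untreated (11 of 440 and 14 of 504 cells), 2.93% in S. chamaejasme (21 of 717) and 4.17% and 4.25% in combination libraries (27 of 647 and 31 of 729). The combination values were the highest, but their 95% Wilson intervals (2.88 to 6.0% and 3.01 to 5.97%) overlapped those of the untreated libraries (1.40 to 4.42% and 1.66 to 4.61%). With doublets kept the groups overlapped, at 1.99% and 3.79% in untreated and 3.21% and 3.76% in combination libraries. That setting also clustered the cells anew and drew a new random thinning, so the shift cannot be assigned to the doublets. The thinning was drawn once in each setting. These intervals cover counting error only. No class here is known to lack the Ifit genes, so a level due to free RNA in droplets could not be measured.

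In CD4 conventional T-like cells the shares were 1.94% and 3.13% in untreated, 1.91% in S. chamaejasme and 3.65% and 2.65% in combination libraries, and the groups overlapped. The interval of combination library 1 (3.04 to 4.36%) lay above those of untreated library 1 (1.34 to 2.81%) and S. chamaejasme (1.45 to 2.50%) and overlapped that of untreated library 2 (2.48 to 3.95%). Treg-like cells had the lowest shares, 0.806% and 0.838% in untreated, 1.17% in S. chamaejasme and 2.52% and 1.62% in combination libraries, where the untreated values rest on 1 and 3 cells. Over the 5 libraries the means were 3.33 ± 0.82% in CD8 T-like, 2.65 ± 0.76% in CD4 conventional T-like and 1.39 ± 0.71% in Treg-like cells (SD, n = 5). Without thinning, the shares ran from 3.83 to 8.73%, from 3.41 to 7.85% and from 1.53 to 5.11% in these classes.

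**Figure D4:**
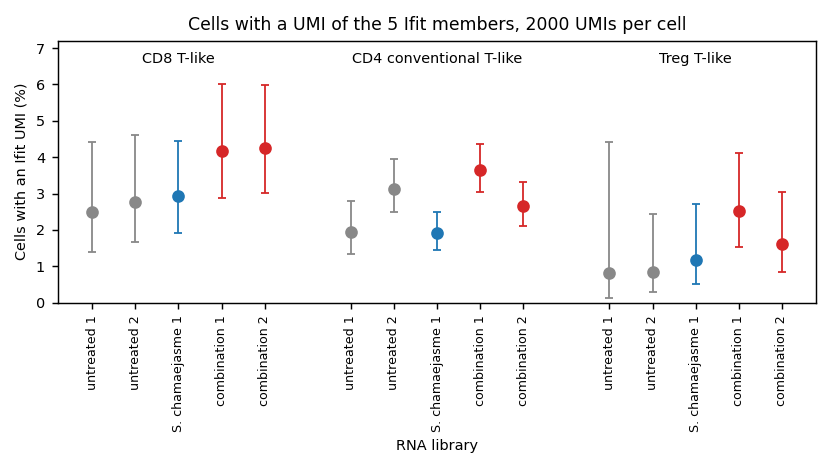
Share of cells (%) with at least 1 UMI of the 5 Ifit members at 2000 UMIs per cell, by class and RNA library, with 95% Wilson intervals. Points for the combination libraries reach 4.17 and 4.25% in CD8 T-like cells, and in CD4 conventional T-like cells the interval of combination library 1 lies above those of untreated library 1 and the S. chamaejasme library.

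The other 43 members, which did not choose these cells, were then compared between cells with and without an Ifit UMI within libraries. In CD8 T-like cells, 11 of the 23 members above the filter were higher in cells with an Ifit UMI, where 0.678% of all genes were, and 0 were lower, against 0.249%. In CD4 conventional T-like cells the count was 19 of 30, against 0.816% of genes, and 0 were lower, against 1.86%. The tested members were above 0 without exception in both classes (23 of 23 and 30 of 30), with medians of 1.5 and 1.10. A rare member could pass the filter through the cells with an Ifit UMI alone, where it was high, and otherwise dropped out. The counts and medians are therefore partly set by the filter. In Treg-like cells 4 members could be tested and 0 were called by edgeR (0.111% of genes in either direction, 1 at unadjusted p under 0.05).

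Isg15 measured 626 ± 460 CPM in CD8 T-like cells with an Ifit UMI and 75.1 ± 30 CPM in those without (SD, n = 5), a log2 difference of 2.86 ± 0.22. Zbp1 was higher by 2.31 ± 0.31 (241 ± 91 against 45.2 ± 13 CPM). Usp18, the protease acting on Isg15, was higher by 3.62 ± 0.51 (84.7 ± 42 against 6.03 ± 2.1 CPM). Usp18 passed the filter through the cells with an Ifit UMI alone, so its call was partly set by the filter and its values are a description. Irf7 measured 284 ± 86 against 64.4 ± 8.6 CPM, and Bst2 377 ± 89 against 94.8 ± 12 CPM, log2 differences of 2.02 ± 0.28 and 1.99 ± 0.23. Each was higher in 5 of 5 libraries. Rtp4 (2.55), Xaf1 (2.22), Isg20 (2.16), Phf11b (1.98), Trim30a (1.81) and Ifi27l2a (1.35) were the others called in CD8 T-like cells, also in 5 of 5 libraries. Trim30a was not called without combination library 1 (adjusted p = 0.345) or 2 (0.185), Isg20 not without combination library 2 (0.0708) and Xaf1 not without the S. chamaejasme library (0.194).

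The largest differences in CD4 conventional T-like cells were those of Slfn5 (2.44 ± 0.38), Rtp4 (2.19 ± 0.27), Isg20 (2.0 ± 0.26), Ifitm3 (1.83 ± 0.40) and Xaf1 (1.79 ± 0.29). Isg15 was higher there by 1.14 ± 0.14, Irf7 by 1.43 ± 0.18, Irf9 by 1.06 ± 0.25, Zbp1 by 1.36 ± 0.20, Bst2 by 1.51 ± 0.16, Usp18 by 1.51 ± 0.44 and Ifi27l2a by 0.38 ± 0.09. Lgals3bp, Samd9l, Trim30a, Slfn1, Epsti1, Ifi203 and Sp100 completed the calls. Of the 19, 9 were not called when 1 library was left out: Usp18, Lgals3bp and Trim30a (untreated library 1 or either combination library), Ifitm3 (untreated library 2), Epsti1 (the S. chamaejasme or either combination library), Ifi27l2a and Sp100 (either combination library), Irf9 (combination library 1) and Slfn1 (combination library 2). Adjusted p was then between 0.0505 for Sp100 and 0.850 for Lgals3bp. Ddx58 (1.17 in CD8 T-like and 0.67 in CD4 conventional T-like cells), Stat2 (1.01 in CD4 conventional T-like cells) and Irf9 in CD8 T-like cells (1.39) were not called. Mx1 and Rsad2 fell below the filter. CD8 T-like cells with an Ifit UMI held 11 Mx1 and 6 Rsad2 UMIs of 208000 thinned UMIs, against 17 and 0 of 5866000 in cells without.

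**Figure D5:**
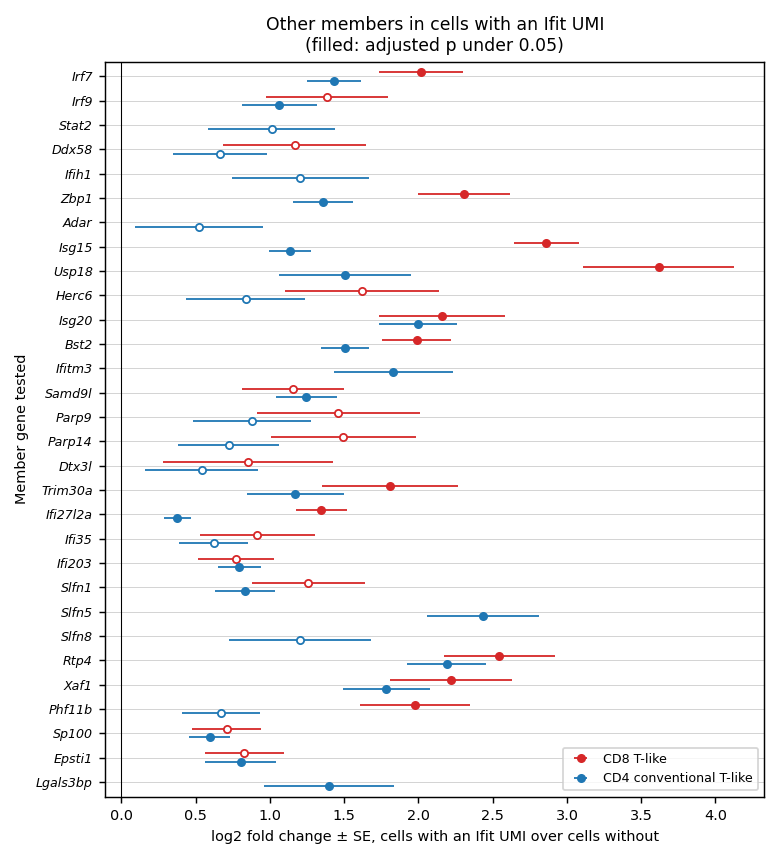
Log2 difference (± SE) of other members between cells with and without an Ifit UMI, within libraries, in CD8 T-like and CD4 conventional T-like cells. Only members above the filter are drawn, and a rare member could pass it through the cells with an Ifit UMI alone. Points lie to the right of 0 throughout, from 0.38 for Ifi27l2a in CD4 conventional T-like cells to 3.62 for Usp18 in CD8 T-like cells. Usp18 in CD8 T-like cells passed the filter in that way. Filled points passed adjusted p under 0.05.

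Genes outside the module were named by the same contrast where both classes passed in the same direction at a mean of at least 20 CPM. The most raised was Ifi214, of the Pyhin family of DNA sensors, by 2.71 ± 0.42 in CD8 T-like and 1.76 ± 0.39 in CD4 conventional T-like cells. Daxx, Ifi209, Ifi208, Gbp4, Gbp2, Ifi47, Mndal, Samhd1 (1.18 and 0.51) and Ms4a4b (0.83 and 0.80) were also higher, and Crip1 (-0.86 and -1.13), Gna13, Pim1 and Dusp1 (-0.58 and -0.50) were lower in both. The receptor genes were not called, at -0.91 and -0.64 for Ifnar1 and -0.05 and 0.12 for Ifnar2, nor was Jak1 (0.19 and -0.28). Of 12 dissociation and heat shock genes, 9 were lower in CD4 conventional T-like cells with an Ifit UMI and 0 in CD8 T-like cells.

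A small number of cells held many members at once. Without thinning, cells had a median of 3 distinct members in the untreated and S. chamaejasme libraries and 5 in the combination libraries, whose cells also had more UMIs (medians of 4905.5 and 4830.5 against 3403.5 to 3915). At least 20 distinct members were found in 12 and 6 untreated, 6 S. chamaejasme and 42 and 38 combination cells. As shares of a library's cells this was 0.535% and 0.171% in untreated, 0.119% in S. chamaejasme and 0.861% and 0.832% in combination libraries. These 104 cells were 0.514% of the 20239 and held 5.48% of the module's UMIs, and they comprised 48 CD4 conventional T-like, 41 CD8 T-like, 11 Treg-like, 2 gamma delta T and 2 other cells. In untreated library 1 the 12 cells held 8.98% of that library's member UMIs, against 2.43% in untreated library 2. The cell with the most members, 36, was a Treg-like cell of combination library 1 with 273 member UMIs, of which 102 were Ifi27l2a and 21 Isg15.

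T cell receptor sequences divided cells into expanded clones, whose paired receptor was shared by at least 2 cells of the class in a library, and single clones. In CD8 T-like cells 2 of 27 tested members were higher in expanded clones, where 10.1% of genes were higher and 8.79% lower. Epsti1 measured 245 ± 33 CPM in expanded and 83.4 ± 10 CPM in single clones (SD, n = 5), a log2 difference of 1.36 ± 0.11 (adjusted p = 4.88e-09, higher in 5 of 5 libraries). Isg20 measured 52.2 ± 7.7 and 24.5 ± 5.3 CPM (0.87 ± 0.19, adjusted p = 0.00184, 5 of 5 libraries). Irf7, Zbp1, Ifit1, Isg15, Bst2 and Ifi27l2a had differences from -0.07 to 0.49, none called.

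Among CD4 conventional T-like cells members were called in both directions. Expanded clones had more Isg15 (211 ± 59 against 96.8 ± 20 CPM, 0.91 ± 0.11), Ifi27l2a (997 ± 206 against 573 ± 58 CPM, 0.58 ± 0.08), Ifitm3 (1.5 ± 0.20), Isg20 (0.77 ± 0.18) and Epsti1 (0.47 ± 0.11), each in 5 of 5 libraries. They had less Usp18 (2.90 ± 2.0 against 9.66 ± 2.9 CPM, -1.83 ± 0.35), Slfn8 (-1.29 ± 0.30), Slfn1 (30.1 ± 8.6 against 60.0 ± 14 CPM, -1.20 ± 0.16), Rtp4, Samd9l, Irf9, Irf7 (-0.51 ± 0.16), Ifi203, Sp100 and Bst2 (-0.39 ± 0.11). That is 5 of 31 higher and 10 lower, where 15.5% and 12.4% of all genes were, so the count of higher members is near the share over all genes. With classes gated on single cells 6 were called (Isg15, Ifi27l2a and Epsti1 higher, Slfn1, Sp100 and Irf9 lower), and the difference of Ifitm3 was -0.13 (adjusted p = 0.87). The calls of Bst2 and Irf7 were lost without untreated library 2, the S. chamaejasme library or combination library 1 (adjusted p from 0.0591 to 0.0952), that of Irf9 without untreated library 2 (0.0591) and that of Ifi203 without combination library 1 (0.0610). Expanded cells were concentrated in clusters 1, 4 and 7 (18.8 to 34.4%, 29.1 to 57.0% and 29.1 to 74.1% of cells with a receptor pair). Within cluster 1, 4 or 7 alone no member was called, and Epsti1 in cluster 7 differed by 0.45. Signs turned for Sp100, Samd9l, Irf7 and Irf9 in cluster 1. In cluster 4 they turned for Ifitm3, Ifi203, Bst2, Epsti1 and Ifi27l2a.

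Upstream of the module, the interferon genes themselves were nearly undetected. The 14 listed ligands had 3 UMIs in all, from Ifnl2 and Ifnz, of 81708052 UMIs in the 3 classes, and none passed the filter. With the combination, Ifnar1 changed by -0.04, 0.14 and 0.29, Ifnar2 by 0.05, 0.10 and 0.03, Jak1 by 0.18, 0.03 and -0.13 and Tyk2 by 0.26, 0.16 and 1.23 in CD8 T-like, CD4 conventional T-like and Treg-like cells, none called. Calls among receptor and signalling genes included Ptpn6, higher in Treg-like cells (1.04), and Irf2bp2, lower in CD8 T-like and CD4 conventional T-like cells (-1.25 and -1.15). Treg-like cells had more Ifnar1 (0.92 ± 0.08) and Ifnar2 (0.58 ± 0.08) than CD4 conventional T-like cells. Of the 23 genes of nucleic acid sensing, none of the 19, 21 and 18 tested was called higher with the combination. Of all genes, 1.74%, 2.25% and 0.973% were, so for so few genes a count of 0 lies near that share. Their medians were 0.18, 0.23 and 0.09, and 2, 9 and 7 were at unadjusted p under 0.05 in the edgeR test. Traf6 was called lower in CD4 conventional T-like cells (-0.44), where 4.01% of all genes were.

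Other interferon-induced genes, a list of 90 of which 86 were in the files, rose with the combination more often than they fell. The counts were 14 higher and 0 lower of 73 tested in CD8 T-like, 18 and 0 of 76 in CD4 conventional T-like and 9 and 0 of 67 in Treg-like cells, with medians of 0.27, 0.31 and 0.47. Of all genes tested, 1.74%, 2.25% and 0.973% were called higher and 3.74%, 4.01% and 1.36% lower. Ly6a, a surface protein of activated lymphocytes, rose by 1.85 ± 0.25 in CD8 T-like cells, from 15.3 and 17.9 CPM in untreated over 24.6 CPM in S. chamaejasme to 74.4 and 45.9 CPM in combination libraries. Tgtp2, a GTPase of the interferon-induced family, rose by 1.0 in CD8 T-like and 1.22 in CD4 conventional T-like cells, and the peptide transport genes Tap1, Tap2 and Tapbp rose by 0.55, 0.85 and 1.01 in CD8 T-like cells. Many of these genes are also induced by interferon gamma, whose own list of 4 had 1 call in each of CD8 T-like and CD4 conventional T-like cells, Jak2 lower (-0.90 and -0.69). With S. chamaejasme alone 4 of the 73 rose in CD8 T-like cells (Fgl2, Ms4a4b, Tap2 and Tapbp), where 1.2% of all genes did, and 0 in the other classes.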

How the data were processed

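RNA of 5 libraries was measured as counts of UMIs per gene and barcode, deposited by the authors as filtered matrices. Per the submitters' processing notes, Cell Ranger 3.1.0, STAR and the mm10 genome were used; the annotation release is not given in the sources used here. Per the file headers, the deposited receptor tables list contigs with counts of reads and UMIs. The labels state no batch, sort or animals.

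Barcodes needed 300 detected genes or more and a mitochondrial share of no more than 10%. Doublets were removed by rank of a Scrublet score (0.8% per 1000 cells, since the tool's own threshold marked too few) and where a barcode had 2 or more productive beta chains. Cells were clustered (scanpy 1.11.5, leidenalg 0.10.2, 2000 variable genes without the members, 30 components, 15 neighbours, resolution 1) and named by markers, with naming settings set after the clusters were seen. Cluster 11 (low depth), cluster 12 (cell cycle genes) and cluster 14 stayed unnamed.

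Counts were summed per class and library and tested with edgeR 4.0.16 (R 4.3.3), TMM scaling, filterByExpr and the quasi-likelihood test, two-sided, with Benjamini-Hochberg adjustment over all genes tested; a call is an adjusted p under 0.05. The group fits hold 5 libraries, and comparisons within libraries have the library as a block. Comparisons of treatments share libraries, so they are not independent. Summed module and marker levels, and levels in clusters, in cells with or without an Ifit UMI and in clones, are CPM without TMM. For cells with an Ifit UMI, cells were thinned to 2000 UMIs, and the Ifit genes were left out of the genes counted. The procedure was tested on simulated data. Alternatives were DESeq2 1.42.0, RLE scaling, no filter on low counts, gated classes, doublets kept (clustered and thinned anew), no library block, other thinning, single clusters and leaving out each library. Positions are from GENCODE vM21 (GRCm38), matched to 50-base stretches of its transcripts for shared sequence; motif counts use RefSeq promoters.

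The members and gene lists were chosen with earlier results of these data known. Named are the 10 called members with the largest change per direction and a panel of 14 (Isg15, Ifit1, Ifit3, Irf7, Irf9, Stat2, Mx1, Rsad2, Usp18, Zbp1, Ddx58, Bst2, Ifi27l2a and Ifitm3), with Ifnar1, Ifnar2, Jak1, Tyk2, called list genes and the 15 genes most changed in cells with an Ifit UMI; some results are not reported here. The rule for these 15 asked for each class tested; with Treg-like cells it gave none, and it was applied to the other classes after the values were seen. Intervals are 95% Wilson intervals.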

Additional observations from a re-analysis of the deposited data

Results flagged for a closer look

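The change of Epsti1 with the combination differed between classes by a test of the difference itself, -0.55 on the log2 scale (CD8 T-like minus CD4 conventional T-like cells). The call was lost without any 1 of 4 libraries (edgeR adjusted p from 0.0755 to 0.346) and with DESeq2 or gated classes.

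Of 5 clusters outside the compared classes, clusters 11 and 12 had a summed module level above both untreated libraries in both combination libraries, and clusters 9, 13 and 14 did not. In cluster 11, a low-depth cluster led by nuclear and ribosomal transcripts, the lower combination value was 1981 CPM and the higher untreated value 1752 CPM, with as few as 67 cells in a library. In cluster 12, led by cell cycle genes, these values were 1730.0 CPM and 1015 CPM, with as few as 18 cells. These differences were not tested.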

How the results depend on the processing

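No paired analysis was possible because the labels give no replicate numbers, and the libraries were numbered in accession order only. Values below are members called unless stated, and the cause was not tested.

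For the combination against untreated libraries, DESeq2 called 0 in CD8 T-like and 0 in Treg-like cells. No filter on low counts gave 5 in CD8 T-like, 21 in CD4 conventional T-like and 6 in Treg-like cells, gated classes gave 4, 3 and 0, doublets kept gave 5 in Treg-like cells, and clusters 1, 2, 4, 5 and 6 alone gave 0 each. Leaving out 1 library gave 1 to 10, 1 to 18 and 0 to 10. For S. chamaejasme against untreated, CD8 T-like cells gave 0 with DESeq2, gated classes or doublets kept and 3 with no filter, CD4 conventional T-like cells 5 with no filter, and leaving out 1 library gave 1 to 8, 1 to 6 and 0 to 2. For the combination against S. chamaejasme, no filter gave 4 in CD8 T-like and 9 in CD4 conventional T-like cells, and leaving out 1 library gave 1 to 7, 0 to 11 and 0 to 1. The difference of responses between classes gave 0 with DESeq2 or gated classes and 0 to 2 without 1 library.

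Without the library block, CD8 T-like against CD4 conventional T-like cells gave 9 and Treg-like against CD4 conventional T-like cells 9, the latter 8 with gated classes; without 1 library these gave 17 to 23 and 13 to 18. For cells with an Ifit UMI, doublets kept gave 18 in CD8 T-like and 3 in Treg-like cells, thinning to 1000 UMIs gave 6 in CD8 T-like and 4 in CD4 conventional T-like cells, where gated classes gave 9 and no library block 11. Without 1 library these were 10 to 12, 12 to 20 and 0 to 0. For clones, clusters 1, 4 and 7 alone gave 0, gated classes gave 6 in CD4 conventional T-like cells, and leaving out 1 library gave 2 to 3 and 12 to 17.

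The module's log2 ratio in Treg-like cells was 0.35 with gated classes and 0.33 thinned to 2000 UMIs. Without 1 library it was 0.0731 to 0.235 in CD8 T-like, 0.201 to 0.389 in CD4 conventional T-like and 0.399 to 0.516 in Treg-like cells. Mean shares with an Ifit UMI were 1.81% and 1.41% in CD8 T-like and CD4 conventional T-like cells thinned to 1000 UMIs, and without 1 library 3.09 to 3.53%, 2.41 to 2.84% and 1.11 to 1.54%.

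Signs turned, as log2 values, for Isg15 without untreated library 1 (0.37 with the combination in CD4 conventional T-like and 0.62 with S. chamaejasme in CD8 T-like cells, against -0.37 and -0.59 without untreated library 2), Rtp4 with the combination in cluster 4 (-0.0709) and Sp100 in cells with an Ifit UMI thinned to 1000 UMIs (-0.0455). Among clones of CD4 conventional T-like cells they turned for Ifitm3 in gated classes (-0.13), for Sp100 (0.28), Samd9l (0.091), Irf7 (0.15) and Irf9 (0.46) in cluster 1, and for Ifitm3 (-0.33), Ifi203 (0.0333), Bst2 (0.0895), Epsti1 (-0.0752) and Ifi27l2a (-0.11) in cluster 4.
Of the values of single members called before or after a change of setting, with all libraries in, 508 kept direction and side of the threshold, 77 newly passed it and 144 no longer did. Depth limits the rare members: in untreated Treg-like cells, Lgals3bp rests on 2 and 5 UMIs.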

Other observations

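In untreated library 1, cluster 9 (gamma delta T cells by receptor genes) had 1 cell among 23 that held 198 of the 355 member UMIs, with 33 distinct members and 55 UMIs of Isg15. The module level of that cluster in that library was 4200.4 CPM with the cell and 1979 CPM without it. Cells with at least 20 distinct members made up 1.36% of cluster 7 and 1.22% of cluster 5, and clusters 8, 11, 13 and 14 had none.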
